A study of Mus musculus with 17 samples.

Results

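N-acetylaspartate (NAA) is among the most abundant small molecules of the brain, and N-acetylaspartylglutamate (NAAG) is the peptide made from it and glutamate. The 7 genes examined here, Nat8l, Rimkla, Rimklb, Aspa, Folh1, Naalad2 and Grm3, encode the enzymes that make and break down both compounds and a receptor for NAAG. They were taken by symbol from 55453 distinct gene symbols in a table of the cortex of Hnrnph2-mutant mice. Rimklb was singled out because it was higher in both knockin lines in these same samples, so its values are given as a description with no test. The other 6 genes were chosen for their role, though with earlier results of these data known, and were tested where the data allowed.

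In neurons, Nat8l joins aspartate to an acetyl group from acetyl-CoA to form NAA. Rimkla and Rimklb are the ligases that add glutamate to NAA to form NAAG, and Rimklb is also known to make beta-citrylglutamate. NAAG released from neurons is cut outside the cell by the peptidases encoded by Folh1 and Naalad2 and acts on the metabotropic glutamate receptor encoded by Grm3, which neurons and astrocytes carry. NAA is broken down to acetate and aspartate by Aspa, an enzyme of oligodendrocytes whose loss causes Canavan disease, a leukodystrophy.

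RNA-Seq was performed on bulk cortex of 17 male mice on a C57BL/6J background. Hnrnph2 encodes an X-linked RNA-binding protein, and the question was how its loss (KO) or a disease-linked substitution (R206W or P209L) alters gene expression. The groups were hemizygous KO mice (n = 3) and their wild-type littermates (KO Control, n = 3) at 8 weeks, hemizygous R206W knockin mice (n = 3) and their wild-type littermates (R206W Control, n = 3) at 8 weeks, and hemizygous P209L knockin mice (n = 3) and their wild-type littermates (P209L Control, n = 2 analysed here) at 3 weeks. No mouse was treated with an agent. The KO allele arose as a frameshift during the making of the knockin lines, and each mutation was present in every cell of the animal. Because the P209L line was the only one sampled at 3 weeks, line and age cannot be told apart in any comparison with the other lines.

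Values were TPM, the share of a transcript among 1000000 transcripts after division by its length, so levels can be compared between genes but the depth of each sample is unknown. Hnrnph2 lay at 21.3 to 24.4 TPM in KO and at 80.5 to 145 TPM in KO Control. Markers of neurons, astrocytes and oligodendrocytes were present in every sample. KO Control 1 stood apart, with 20.1% of its TPM from mitochondrial genes against 10.7 to 15.4% in the other 16 samples and a summed level of 8 neuron markers of 3344 TPM against 5311 to 5820 TPM in the other 5 wild-type mice at 8 weeks. In bulk tissue, fewer cells of a type and less RNA per cell cannot be told apart.

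In wild-type cortex at 8 weeks (n = 6), Nat8l was the most abundant of the 7 transcripts, with 136 ± 27.6 TPM (SD), followed by Grm3 with 45.9 ± 4.21, Rimklb with 39.5 ± 4.31, Aspa with 17.03 ± 3.25, Rimkla with 5.83 ± 0.97, Folh1 with 3.38 ± 0.18 and Naalad2 with 0.77 ± 0.29. The synthesis gene Nat8l thus exceeded Aspa by a mean ratio of 8.37 ± 2.51, and the ligase gene Rimklb exceeded Rimkla by 6.94 ± 1.34. Of the 7 genes, 6 had a mean of at least 1 TPM over the 17 samples and entered the fit across 16265 genes. Naalad2, with a mean of 0.69 TPM, did not, and was compared by an exact permutation test.

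**Figure D1:**
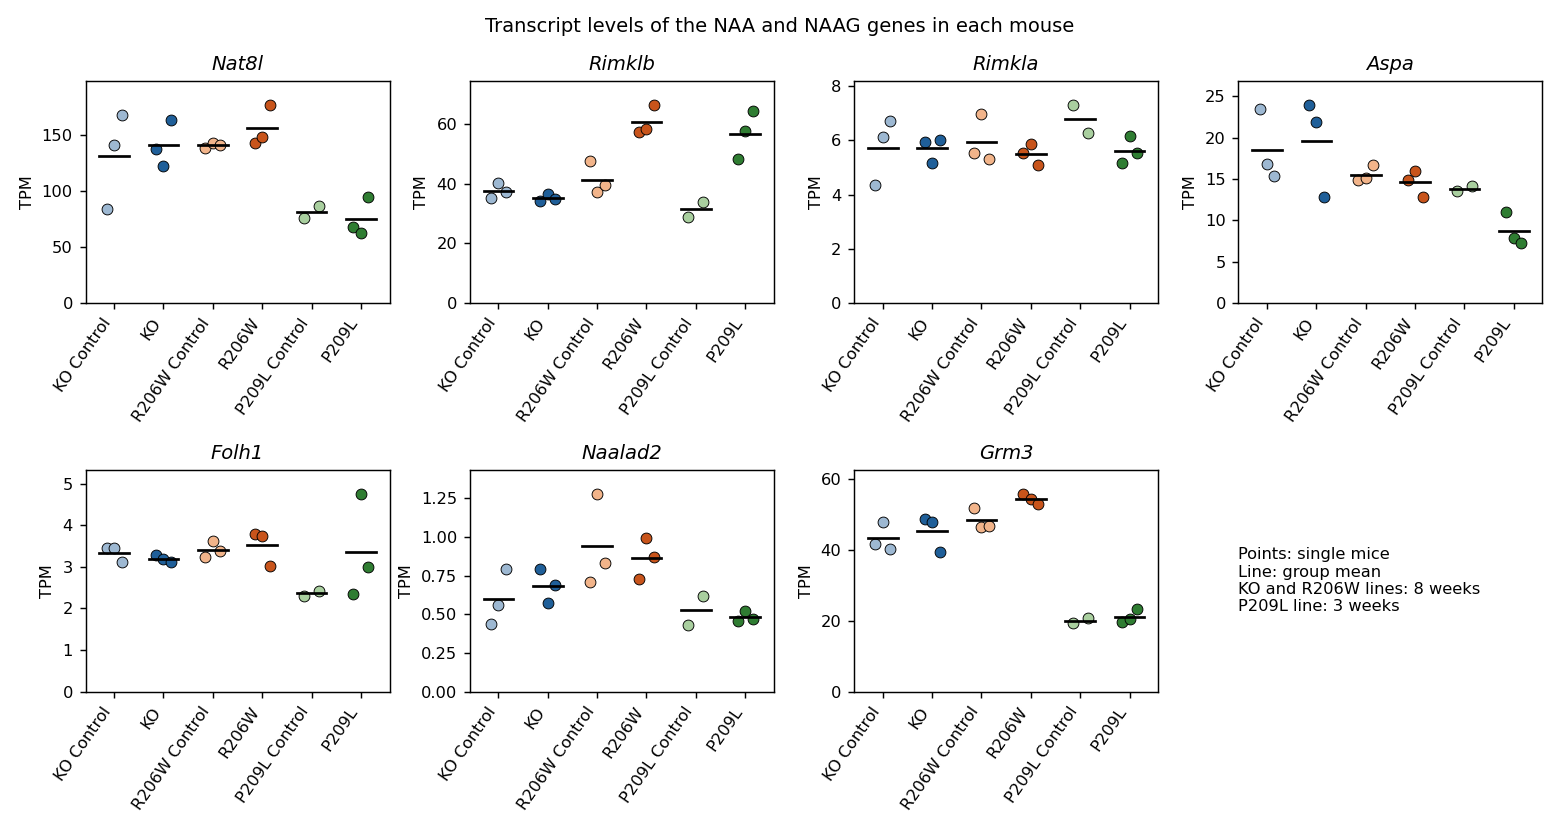
TPM (linear axes from 0) of each gene in each of the 17 mice; points are mice and lines are group means. The R206W mice (57.6 to 66.5 TPM) and P209L mice (48.3 to 64.6 TPM) lie above their controls for Rimklb, and both 3-week groups lie below every 8-week group for Grm3.

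Rimklb (ENSMUSG00000040649.15, GENCODE M21, GRCm38, chromosome 6, 122447296 to 122498761, minus strand) has 7 annotated transcripts, of which 4 are coding, while Rimkla (ENSMUSG00000048899.8, chromosome 4, 119465283 to 119492628, minus strand) has 2, of which 1 is coding.

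Rimklb was measured at 57.56, 58.26 and 66.52 TPM in the 3 R206W mice and at 47.51, 37.28 and 39.46 TPM in their controls. In P209L it was at 48.29, 57.63 and 64.61 TPM, against 28.90 and 33.98 TPM in the controls. In KO it was at 34.09, 36.59 and 34.78 TPM, against 35.23, 40.34 and 37.32 TPM in the controls. Every R206W and P209L mouse lay above every control of its line, and KO and KO Control overlapped. On the log2(TPM + 1) scale the difference was 0.55 (SE 0.12) in R206W, 0.83 (SE 0.14) in P209L and -0.09 (SE 0.12) in KO, with means at 147%, 181% and 93.4% of the controls. These contrasts are the ones Rimklb was selected on. Ordered by mean level, R206W (60.8 ± 4.98) and P209L (56.8 ± 8.19) stood first with overlapping ranges, R206W Control (41.4 ± 5.39), KO Control (37.6 ± 2.57) and KO (35.2 ± 1.29) followed with each range overlapping the next, and P209L Control (31.4 ± 3.59) was lowest, below every KO mouse.

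Rimkla, the paralogous ligase, did not follow. It was at 5.53, 5.88 and 5.10 TPM in R206W against 5.52, 6.97 and 5.33 TPM in R206W Control, and at 5.93, 5.16 and 6.02 TPM in KO against 4.34, 6.13 and 6.70 TPM in KO Control. In P209L it was at 5.17, 6.16 and 5.54 TPM, all under the 7.31 and 6.26 TPM of the controls. The P209L difference of -0.23 (SE 0.16, limma adjusted p = 0.832) did not pass the threshold of 0.05, nor did those in R206W (-0.09, SE 0.14, adjusted p = 1) and KO (0.01, SE 0.14, adjusted p = 1).

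Because Rimkla is the lower of the pair, the summed level of both ligase transcripts followed Rimklb. The sum was 66.3 ± 4.65 TPM in R206W against 47.4 ± 4.92 in R206W Control, and 62.5 ± 8.42 in P209L against 38.2 ± 2.85 in P209L Control. In KO it was 40.9 ± 0.87 TPM against 43.4 ± 3.50. Rimklb made up 91.6 ± 1.08% of the sum in R206W against 87.3 ± 2.76%, 90.9 ± 1.02% in P209L against 82.1 ± 3.27%, and 86.0 ± 1.40% in KO against 86.9 ± 2.13%. As a share of TPM, Rimklb was the main ligase transcript in all 17 mice, from 79.8 to 92.9%.

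**Figure D2:**
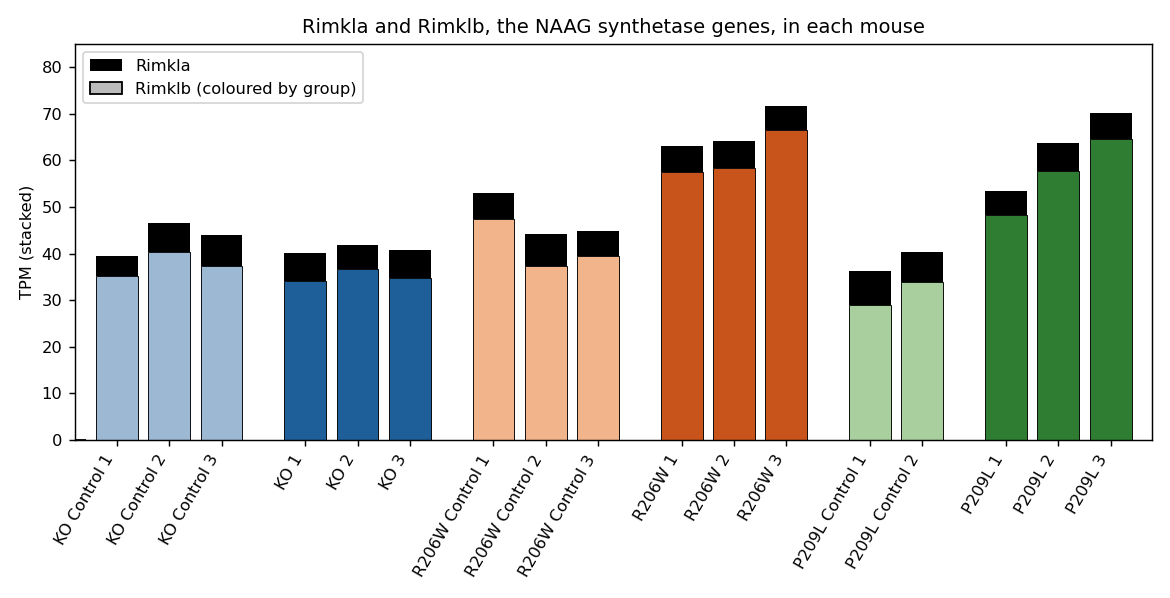
Stacked TPM of Rimklb (coloured by group) and Rimkla (black) in each mouse, on a linear axis from 0. The black segment stays between 4.34 and 7.31 TPM while the coloured segment ranges from 28.9 to 66.5 TPM.

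Nat8l, the NAA synthase gene, was at 137.37, 122.60 and 163.40 TPM in KO and at 84.29, 141.12 and 167.93 TPM in KO Control. It was at 143.04, 148.36 and 176.74 TPM in R206W, each above the 138.44, 142.98 and 140.97 TPM of the controls, though the closest values were 143.04 and 142.98 TPM. In P209L it was at 67.54, 62.20 and 94.77 TPM against 75.79 and 86.76 TPM, with overlapping ranges. No change passed, with 0.15 (SE 0.21) in KO, 0.14 (SE 0.21) in R206W and -0.14 (SE 0.23) in P209L, and limma adjusted p = 0.999, 1 and 0.965. The KO value rests on KO Control 1 and was -0.13 without it. Per 1000 TPM of the 8 summed neuron markers, Nat8l was at 28.7 to 31.6 in R206W and 25.5 to 26.5 in R206W Control, a difference of 4.11 with an exact two-sided permutation p = 0.1, the smallest that 3 mice against 3 allow, and 0.6 after adjustment over 12 such tests. That sum was 5188 ± 351 TPM in R206W and 5436 ± 157 TPM in R206W Control. Over the 17 samples Snap25 averaged 2317 TPM of a mean sum of 4516 TPM. Of the 8 markers, 5 had a log2 difference above 0 in R206W (median 0.05), and Snap25 was at -0.16.

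Aspa, the NAA hydrolase gene, had the largest difference among the 5 tested genes in a mutant line. It was at 11.03, 7.83 and 7.23 TPM in P209L, all under the 13.49 and 14.12 TPM of P209L Control, a mean of 63.0% of control. The log2 difference was -0.63 (SE 0.23, 95% interval -1.12 to -0.14). It did not pass, with a limma adjusted p = 0.505 and an unadjusted p = 0.0145. In R206W it was at 14.91, 15.96 and 12.87 TPM against 14.83, 15.08 and 16.66 TPM (-0.09, SE 0.20, adjusted p = 1). In KO it was at 23.95, 21.85 and 12.80 TPM against 23.46, 16.76 and 15.40 TPM (0.05, SE 0.20, adjusted p = 0.999), the widest spread of any group. The difference between the P209L and R206W effects was -0.54 (SE 0.31, adjusted p = 1).

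Other markers of mature oligodendrocytes lay in the same direction as Aspa in P209L. Of 10 such markers, among them the myelin genes Mbp and Mog, 10 had a log2 difference under 0, with a median of -0.84 against 0.02 over all genes, and 0 passed in limma at an adjusted p under 0.05. The number lower was 2 with size factors, 1 with quantile normalization and 1 with the replicate number as a block. Over all 16265 genes the number lower was 29, 27 and 12 under these settings, against 3 in the main fit. Of the markers, 5 were lower with default sample weights, which did not converge, and 1 with gene-by-gene weights. Their summed level was 3122, 3680 and 2576 TPM in P209L, each under the 4269 and 6366 TPM of P209L Control. Relative to that sum, Aspa was at 2.82 ± 0.70 TPM per 1000 TPM in P209L and 2.69 ± 0.67 in P209L Control (exact two-sided permutation p = 0.9). The same 10 markers all had a log2 difference under 0 in R206W as well, with a median of -0.14 against 0.01 over all genes. In KO 9 of 10 were above 0, with a median of 0.17 against 0.06, and 0 passed in either line. The KO median was -0.0036 without KO Control 1. In P209L the leptomeningeal fibroblast markers were also lower in 6 of 6 cases (median -0.43), and the endothelial markers in 5 of 5 (median -0.26). Also under 0 were 3 of 4 oligodendrocyte precursor markers (median -0.28), 6 of 8 neuron markers (-0.12) and 4 of 6 microglia markers (-0.04). Astrocyte markers were under 0 in 4 of 9 cases and inhibitory neuron markers in 3 of 6. Of 7 cortical excitatory neuron markers, 6 were above 0 (median 0.05). In these lists 0 markers passed. The part of these cells in the Aspa difference was not tested.

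**Figure D3:**
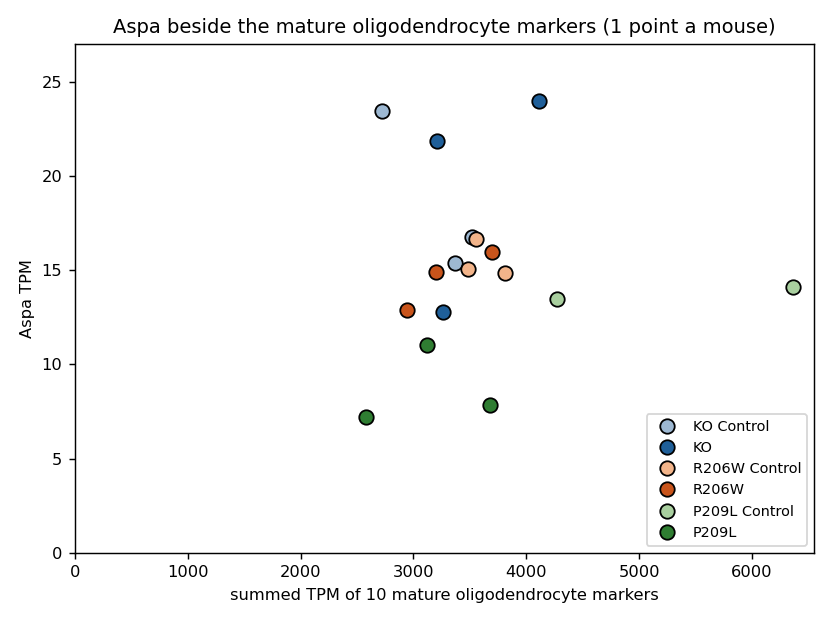
Aspa TPM (vertical axis) against the summed TPM of 10 mature oligodendrocyte markers (horizontal axis), both linear from 0, with 1 point for each of 17 mice. The P209L mice lie lowest on the vertical axis, and the P209L Control mice have the highest marker sums, 4269 and 6366 TPM, with Aspa at 13.49 and 14.12 TPM.

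The NAAG peptidase genes were low in all groups. Folh1 was at 2.35, 4.76 and 2.99 TPM in P209L against 2.31 and 2.41 TPM in P209L Control, so that only P209L 2 and P209L 3 exceeded both controls. The log2 difference of 0.34 (SE 0.17, limma adjusted p = 0.722) did not pass and was 0.12 without P209L 2. That mouse also had 11.25 TPM of Dynlrb2, 5.63 TPM of Odf3b and 17.99 TPM of Ccdc153, against at most 2.95, 1.76 and 2.88 TPM in the other 16 samples. These are genes of motile cilia and were found because they tracked Folh1 most closely within groups; their part in its level was not tested. Folh1 was at 3.80, 3.75 and 3.02 TPM in R206W against 3.23, 3.62 and 3.38 TPM, and at 3.28, 3.19 and 3.12 TPM in KO against 3.46, 3.45 and 3.11 TPM, with differences of 0.03 (SE 0.16, adjusted p = 1) and -0.05 (SE 0.16, adjusted p = 0.999). Naalad2 was at 0.43 to 1.28 TPM over the 17 mice, with exact two-sided permutation p = 0.5 in KO, 0.9 in R206W and 0.8 in P209L, where 0.1 is the smallest possible.

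Grm3, the NAAG receptor gene, was at 55.98, 54.32 and 52.92 TPM in R206W, each above the 51.84, 46.50 and 46.80 TPM of the controls. The log2 difference of 0.17 (SE 0.11, 95% interval -0.06 to 0.40, limma adjusted p = 1) did not pass. In KO it was at 48.65, 47.85 and 39.35 TPM against 41.63, 47.95 and 40.44 TPM, and in P209L at 19.62, 20.43 and 23.46 TPM against 19.32 and 20.83 TPM. Both sets overlapped, with differences of 0.06 (SE 0.11, adjusted p = 0.999) and 0.07 (SE 0.12, adjusted p = 0.969).

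Taking the mutant lines as a set of comparisons, 0 of the 5 tested genes (Rimkla, Nat8l, Aspa, Folh1 and Grm3) passed in limma in KO, R206W or P209L. Over all 16265 genes, 0.00615% passed in KO, 0.0369% in R206W and 0.0984% in P209L, and 663, 357 and 1213 genes had an unadjusted p under 0.05, of which Aspa in P209L was 1. Leaving out Rimklb, mutant and control ranges were apart for 0 of the other 6 genes in KO, 2 in R206W (Nat8l and Grm3, higher) and 2 in P209L (Rimkla and Aspa, lower), against 6.25%, 16.2% and 24.9% of all genes. None of the 5 passed when the KO effect was set against the R206W effect, where 0.0307% of all genes passed and 373 had an unadjusted p under 0.05, or the P209L effect against the R206W effect, where 0% passed and 647 had an unadjusted p under 0.05.

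**Figure D4:**
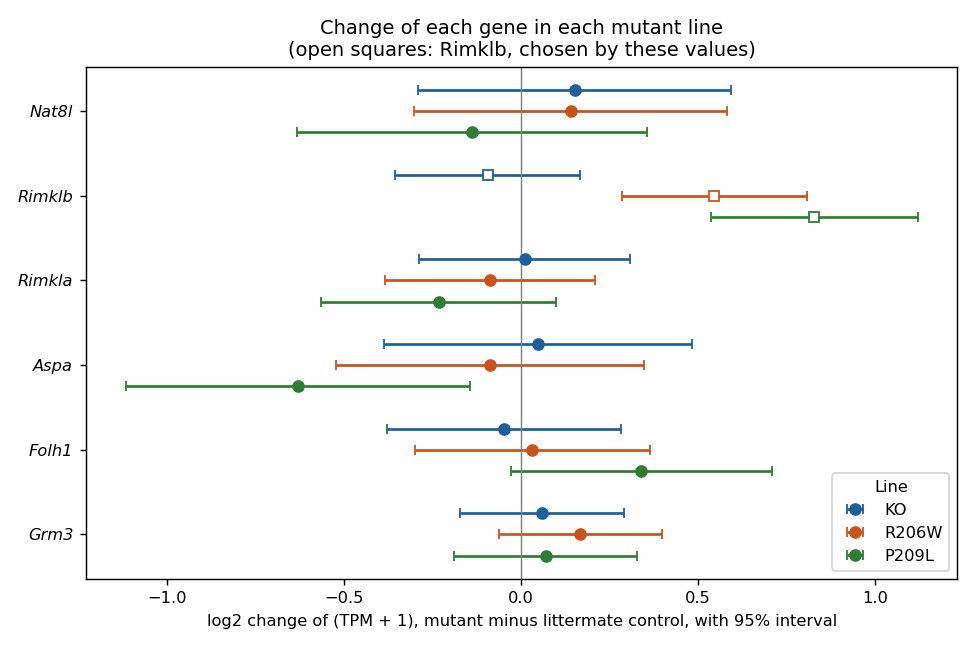
Log2 difference of (TPM + 1) between mutant and littermate control with its 95% interval, for the 6 genes in the fit and each line; open squares mark Rimklb, selected on these values. Among the tested genes, the interval of Aspa in P209L (-1.12 to -0.14) alone does not reach 0, before adjustment for multiple testing.

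The genes that feed and carry the NAA pathway were examined as a list of 21, of which 18 were in the fit. It holds enzymes that supply aspartate (such as Got1 and Mdh1) and acetyl-CoA (such as Cs, Acly and Pdhb), transporters of NAA, citrate or acidic amino acids (Slc13a3, Slc13a5 and Slc17a5), relatives of the hydrolases and the receptor gene Grm2. In limma 0 of the 18 passed in any of the 3 lines. Their median log2 difference was 0.13 in KO, 0.07 in R206W and -0.07 in P209L, beside 0.06, 0.01 and 0.02 over all genes. Without KO Control 1 the KO median was -0.05, beside -0.06 over all genes. The R206W median was -0.02 without R206W 3. The smallest p in P209L belonged to Slc13a3, a plasma membrane carrier of NAA, at 2.87 ± 0.37 TPM against 4.68 ± 1.22 in the controls (-0.54, SE 0.24, adjusted p = 0.631), and to Slc13a5, a citrate carrier (0.28, SE 0.14, adjusted p = 0.688). In R206W they belonged to Slc13a5 (0.23, SE 0.12, adjusted p = 1) and Slc13a3 (-0.24, SE 0.22, adjusted p = 1), and in KO to the aminoacylase gene Acy1 (0.34, SE 0.18, adjusted p = 0.999) and the acetyl-CoA synthetase gene Acss1 (0.21, SE 0.11, adjusted p = 0.999).

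The P209L Control mice at 3 weeks were next compared with the 6 wild-type mice at 8 weeks, a comparison in which age and line cannot be told apart. Grm3 was lower at 3 weeks, at 20.1 ± 1.07 TPM against 45.9 ± 4.21 TPM, 43.8% of the 8-week level. The log2 difference of -1.15 (SE 0.11) passed with a limma adjusted p = 1.09e-05, and the ranges did not overlap. Nat8l was lower as well, at 81.3 ± 7.76 TPM against 136 ± 27.6 TPM (-0.71, SE 0.21, adjusted p = 0.0157), although KO Control 1 at 84.29 TPM lay within the 3-week range. The Nat8l call was lost without P209L Control 1 (adjusted p = 0.145), without P209L Control 2 (0.0646) or with only the groups compared in the fit (0.0521). Thus 2 of the 5 tested genes passed, in a contrast where 36.1% of all genes did (1837 higher, 4039 lower) and the median of all genes was -0.12. Scaling by size factors moved that median to 2.05e-05 and the calls to 3503 higher and 3677 lower, with Grm3 at -1.01 and Nat8l at -0.57, both still past the threshold.

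The remaining genes did not pass between ages. Folh1 was at 2.36 ± 0.07 TPM at 3 weeks against 3.38 ± 0.18 TPM, with no overlap (-0.38, SE 0.16, limma adjusted p = 0.0678). Folh1 did pass under 4 of 18 alternatives, with the lowest limma adjusted p = 0.013 with gene-by-gene weights. Aspa differed by -0.27 (SE 0.20, adjusted p = 0.322) and Rimkla by 0.20 (SE 0.14, adjusted p = 0.283). Rimkla, alone among the 5, had a mean above the 8-week level at 3 weeks, and it passed after scaling by size factors (0.32, adjusted p = 0.0252) or quantile normalization (0.35, adjusted p = 0.0177). Naalad2 was at 0.53 ± 0.13 TPM against 0.77 ± 0.29 TPM (exact two-sided permutation p = 0.321). Rimklb was at 31.4 ± 3.59 TPM against 39.5 ± 4.31 TPM, and in P209L mice of the same age it was at 56.8 ± 8.19 TPM, above all 6 wild-type mice at 8 weeks.

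Markers of the cells that carry these genes also differed between the 3-week and 8-week wild-type mice, which differ in line as well. Of 10 mature oligodendrocyte markers, 7 passed as higher at 3 weeks (median 0.71), in a contrast where 1837 of 16265 genes did, whereas the Aspa difference was -0.27 and did not pass. The count of markers was 2 without P209L Control 2 (median 0.43) and 4 with only the groups compared in the fit. Per 1000 TPM of those markers Aspa was at 2.22 and 3.16 at 3 weeks and at 3.89 to 8.61 at 8 weeks (exact two-sided permutation p = 0.179, and 0.0476 without KO Control 1, the smallest that 2 mice against 5 allow). Of 9 astrocyte markers 4 were lower at 3 weeks (median -0.40), in a contrast where 4039 of 16265 genes were. Grm3 per 1000 TPM of the astrocyte markers was at 16.3 and 18.3 against 23.5 to 31.6 (exact permutation p = 0.0357, the smallest that 2 mice against 6 allow). Of 8 neuron markers 4 were lower and 1 higher (median -0.56), and Nat8l per 1000 TPM of them was at 22.1 and 28.0 against 25.2 to 28.9 (exact permutation p = 0.5). After adjustment over the 12 tests of such ratios, the exact permutation p of 0.179, 0.0357 and 0.5 became 0.6, 0.429 and 0.857. The comparison without KO Control 1 was not among the 12, and its p was not adjusted. In the other lists, 4 of 7 cortical excitatory neuron, 3 of 6 microglia, 1 of 6 inhibitory neuron and 1 of 5 endothelial markers were lower. Of 6 leptomeningeal fibroblast and 4 oligodendrocyte precursor markers, 0 were lower. Higher were 1 microglia, 1 endothelial and 1 oligodendrocyte precursor marker. The part of the cell markers in the differences between 3 and 8 weeks was not tested beyond the ratios above.

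**Figure D5:**
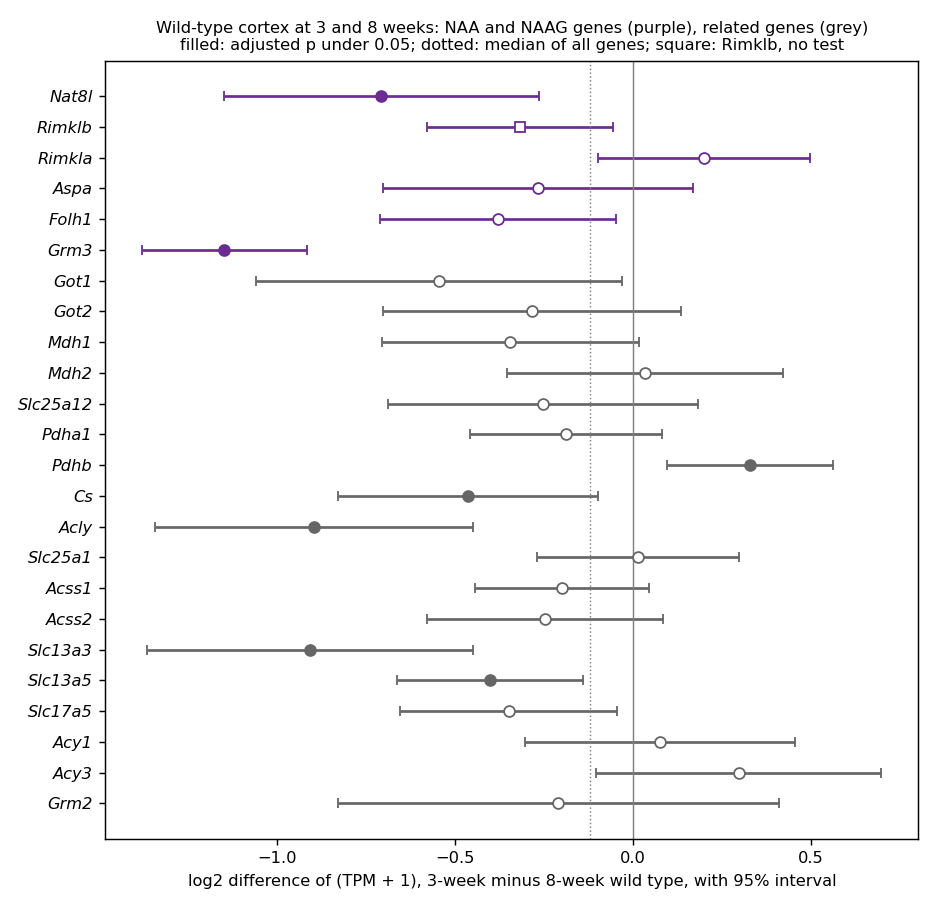
Log2 difference of (TPM + 1) with its 95% interval between wild-type cortex at 3 weeks (n = 2) and 8 weeks (n = 6), for the 6 genes in the fit (purple) and 18 related genes (grey); filled points passed and the dotted line is the median of all genes (-0.12). Grm3 at -1.15 and Nat8l at -0.71 are the filled purple points.

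In the related list, 5 of 18 genes passed, 4 lower and 1 higher at 3 weeks, with a median of -0.25 beside -0.12 over all genes. That share is no larger than the 36.1% of all genes that passed in this contrast. Acly, which makes cytosolic acetyl-CoA from citrate, was at 34.9 ± 3.51 TPM against 67.4 ± 15.4 TPM (-0.90, SE 0.21, limma adjusted p = 0.00431). Slc13a3 was at 4.68 ± 1.22 TPM against 9.64 ± 1.71 TPM (-0.91, SE 0.22, adjusted p = 0.00473). Citrate synthase, Cs, was lower at 3 weeks by 0.46 (SE 0.17, adjusted p = 0.0459) and Slc13a5 by 0.40 (SE 0.12, adjusted p = 0.0191). Pdhb, a subunit of pyruvate dehydrogenase, was higher by 0.33 (SE 0.11, adjusted p = 0.0292). Without KO Control 1 the list held 10 lower genes and 1 higher. Leaving out a P209L Control mouse leaves 1 mouse at 3 weeks, so only the list median is given there. It was -0.28 without P209L Control 1 and -0.27 without P209L Control 2. All 5 calls, those of Acly and Slc13a3 included, rested on P209L Control 1. Over all alternatives the difference was -1.11 to -0.76 for Acly and -1.13 to -0.69 for Slc13a3. Cs and Pdhb lost their calls with only the groups compared in the fit, Cs in each fit without 1 of the other 5 wild-type mice at 8 weeks as well, and Slc13a5 after scaling by size factors or quantile normalization. The 2 control lines of the same age, R206W Control and KO Control, gave 0 calls among the 5 tested genes in limma, where 0% of all genes passed and 507 had an unadjusted p under 0.05.

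Over the 17 samples, the transcripts most like each gene were listed by Pearson's r of log2(TPM + 1), as a description over samples that share groups. For Rimklb they were Phactr3 (r = 0.924), Ddn (0.916) and Ppp1r9b (0.908), which the study selected with Rimklb on these samples as higher in both knockin lines. For Nat8l they were Rab11fip5 (0.993), Atp2b2 (0.989) and Rab11fip4 (0.988), for Aspa Ermn (0.891), a myelin gene, Hells (0.876) and Scd3 (0.871), and for Grm3 Gm10010 (0.983), Pcdhb21 (0.982) and Kcna3 (0.979). Rimkla was closest to Srbd1 (0.819), Ago4 (0.817) and Faap24 (0.816), and Folh1 to Tcp11l1 (0.791), Hapln1 (0.791) and Gm973 (0.757). With the group means subtracted, the nearest to Rimklb was Gpr137b (0.884), to Nat8l Arhgef25 (0.990), to Aspa Mrps14 (0.943), to Folh1 Dynlrb2 (0.960), to Rimkla Dpp7 (0.860) and to Grm3 Gm37176 (0.933), so none of the leading genes as measured remained first within groups. Between the members, Rimkla and Rimklb had r = -0.333 as measured and -0.109 within groups.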

How the data were processed

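Frozen cortex was treated with RNAlater-ICE, RNA was extracted with an RNeasy kit and libraries were made with TruSeq Stranded Total RNA. The authors deposited TPM by gene symbol; the submitters' processing notes name Trim Galore, STAR 2.7.1a, GATK 4.0.4.0, RSEM and build mm10, and the annotation is not given in the sources used here. TPM is a proportion, so abundant transcripts shift the others; depth cannot be recovered, and no counting error is given. Repeated symbols (120) were summed. Genes averaging 1 TPM or more were analysed as log2(TPM + 1) with limma 3.58.1 in R 4.3.3 (a mean for each of 6 groups, all 17 samples, eBayes with trend), two-sided, with Benjamini-Hochberg adjustment over 16265 genes and a threshold of 0.05. The fit was tested on simulated data. Nothing says how littermates were shared between samples, so p-values measure the spread between these mice.

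The genes named are the 7 genes, Hnrnph2, the list of 21 related genes (values for those that passed, or the 2 with the smallest p) and the 3 most similar genes of each. Members and lists were chosen with earlier results of these data known. Dynlrb2, Odf3b and Ccdc153 beside Folh1, and the ratios to cell markers, were chosen after values were seen. Alternatives were pseudocounts of 0.1 and 0.5, no filter or a mean of 5 TPM, size factors, quantile normalization, only the groups compared, a replicate block, robust moderation, sample weights and leaving out each mouse.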

Additional observations from a re-analysis of the deposited data

Results flagged for a closer look

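In the 6 wild-type mice at 8 weeks, KO Control 1 lay far from the others for Nat8l, at 84.29 TPM against 138.44 to 167.93 TPM, and for Aspa, at 23.46 TPM against 14.83 to 16.76 TPM. The gap to the nearest mouse was 0.647 and 0.776 of the whole range, above Dixon's limit. For 1 gene, chance gives such a gap in about 1 in 20 groups. All 7 genes were screened, and both gaps come from the same mouse, KO Control 1. It is the mouse with the highest mitochondrial share, 20.1%, and the lowest neuron markers of these 6, and its part in the Nat8l and Aspa values was not tested beyond leaving it out.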

How the results depend on the processing

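Among the tested genes 2 passed between wild-type ages, and leaving out a mouse gave 1 to 2. The counts of 0 in the mutant lines held under every alternative except sample weights. The planned default weights did not converge (KO Control 2 got a weight of 2.44e-14), and gave 1 call in R206W (Grm3, adjusted p = 0.046) and 1 in P209L (Aspa, adjusted p = 0.0243). Gene-by-gene weights, added after these were seen, gave 1 call in KO (Aspa, 0.42, adjusted p = 0.0249), with KO Control 1 weighted at 0.0819, and none in R206W or P209L. The cause was not tested.

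Direction changed for values near 0. In KO, Rimkla was -0.052 with size factors, -0.068 with quantile normalization, -0.13 with default and -0.089 with gene-by-gene weights, and -0.15 to 0.12 when a mouse was left out. Nat8l was -0.23 and -0.088 with these weights and -0.13 to 0.36 when a mouse was left out. Aspa was -0.028 with size factors, -0.020 with quantile normalization and -0.12 to 0.31 when a mouse was left out. Folh1 was 0.050 with default weights, and Grm3 was -0.017 with size factors. When a mouse was left out, Rimkla in R206W was -0.15 to 0.016, Folh1 in R206W -0.012 to 0.12 and Grm3 in P209L -0.0028 to 0.12.

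The labels give mutants and controls the same replicate numbers. The deviations of same-numbered mice correlated at -0.113 to 0.331. With 2 or 3 mice a group, these correlations cannot decide whether the numbers pair the mice, and the main fit did not use the numbers. With the number as a block, Folh1 passed between ages (-0.42, adjusted p = 0.0448), and no other call of a member changed. Fits that left out a P209L Control mouse assume that the other varies like the remaining groups. Depth is unknown, and 2 or 3 mice a group limit what can be detected.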
